A study of Oryctolagus cuniculus with 30 samples.

Results

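The 89 probes described here were chosen by a rule on rabbit ear epidermis: their signal was higher in a newly closed wound than in unwounded skin, and lower in wounds kept under film than in uncovered wounds, on both later days. In the series table deposited by the authors, on the log2 scale, a probe of the AF class of the array design had to reach a highest group mean of at least 9, a wound minus unwounded difference of at least 1, and an uncovered minus covered difference of at least 0.8 at day 3 and again at day 5. The rule found 89 of 14558 AF probes, out of 23369 probes on the array. These 3 differences therefore chose the probes and are given below as descriptions, with no test. By the same thresholds 736 AF probes were raised by the wound, and 145 were lower under cover on both days, of which 56 fell short of the wound threshold.

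Epidermal RNA of rabbits (female New Zealand White, a common laboratory breed) was hybridised to 1-colour Agilent arrays of a rabbit design, 1 sample per array, 30 arrays in all. Superficial grids of cuts in ear skin were kept under Tegaderm, a transparent adhesive film, until the epithelium had closed, which is day 0 here. From then the film was taken off the right ear (uncovered) while the left ear received further layers (covered), and ammonium thiocyanate was used to lift the epidermis off the dermis. The groups were unwounded skin (2 arrays), the newly closed wound of day 0 (6), wounds without cover on day 3 (6) and day 5 (6), and covered wounds on the same days (5 each). The wound at day 0 had thus been under film in both ears, and ear side and covering cannot be told apart. The labels do not say which arrays share an animal, so p-values measure the spread between these samples only. The animals' age and any genetic change are not given in the labels.

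The outer epidermis holds water in the skin, and newly closed wounds lose water more readily until that barrier has matured. Film dressings slow this loss and are used clinically on healing wounds and scars. Keratinocytes at a wound enter an activated state, with wound-type keratins, calcium-binding alarm proteins, cytokines and proteases, and leave it as the barrier returns. The series set out to relate the expression of pro-inflammatory genes in the epidermis to hydration. The array files call every probe unknown and no probe could be paired with a gene here, so the members are given by probe name and sequence, and neither the tissue label nor any pathway could be checked against marker genes.

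Each member is a 60-base probe. The 89 probes lie on 56 contigs or clones, 33 with 2 member probes and 23 with 1, and every contig carries 2 probes on the array. The 8 sequences that follow are those on which the results below turn: the probe with the largest rule differences, a probe that rose further after the cover came off, a probe that fell, a pair from 1 contig whose courses parted, a probe that rose under cover, and a pair from 2 contigs that read the same stretch. Capitals in the first 6 mark the hexamer AATAAA, the common polyadenylation signal, where it is present.
UF_Ocu_AF_101828: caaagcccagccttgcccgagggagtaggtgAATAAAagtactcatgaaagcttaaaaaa
UF_Ocu_AF_109723: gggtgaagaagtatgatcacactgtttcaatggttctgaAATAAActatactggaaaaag
UF_Ocu_AF_105704: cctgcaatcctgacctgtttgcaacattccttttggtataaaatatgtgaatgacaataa
UF_Ocu_AF_110104: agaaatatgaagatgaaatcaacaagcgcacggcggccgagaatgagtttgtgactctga
UF_Ocu_AF_110105: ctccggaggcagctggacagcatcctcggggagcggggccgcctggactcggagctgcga
UF_Ocu_AF_100866: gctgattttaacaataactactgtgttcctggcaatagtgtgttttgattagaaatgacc

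In the last pair capitals mark a run of 51 bases common to both probes, found at bases 10 to 60 of the first and 1 to 51 of the second. It was the only run of at least 20 bases that a member shared with another probe on the array, on either strand.
UF_Ocu_AF_103873: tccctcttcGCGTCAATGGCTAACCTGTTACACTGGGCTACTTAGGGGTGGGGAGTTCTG
UF_Ocu_AF_111934: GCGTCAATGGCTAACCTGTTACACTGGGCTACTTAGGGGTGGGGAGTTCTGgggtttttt

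The levels of these 2 probes differed by at most 0.28 log2 units on any of the 30 arrays (r = 0.998). Counting them as 1 sequence brings the 56 contigs or clones to 55. Shorter shared runs were not merged, such as that of UF_Ocu_AF_111564 and UF_Ocu_AF_112853, which falls just under 20 bases. The 55 is therefore not a count of separate transcripts. Contig counts below keep the 2 contigs of the overlapping pair apart. The median GC content of the members was 45.0%, with a range of 35.0% to 73.3%, and it was 43.3% in the 7795 AF probes that reached the same brightness. AATAAA was present in 20 of the 89 members (22.5%), in 13.0% of the equally bright AF probes and in 8.59% of all 14558 AF probes. On the opposite strand the hexamer was found in 7 members (7.87%), against 4.58% and 3.74%. These shares are descriptions, since probes of a contig are not independent and brightness was part of the rule.

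Levels below are the log2 processed signal of the scanner files minus each array's 75th percentile, taken over the 7446 probes that exceeded background everywhere, so they compare arrays and not probes. Between 39.7% and 50.4% of all probes were well above background per array, and arrays of a group correlated with r from 0.915 to 0.994. The 30 arrays lay on 11 slides scanned on 3 days, and slide 6, with unwounded replicate 2 and covered day 5 replicate 1, was scanned on a day of its own. Tests are from 1 limma fit over all arrays and 12342 probes, those that stood well above background on 2 arrays or more. A call means that p, adjusted by Benjamini-Hochberg over all of these probes, was under 0.05. All 89 members were among the probes tested, and none was saturated. Every member was well above background on every array of the day 0 and uncovered groups. In unwounded skin 14 members were well above background on no array, and the same held for 3 members in covered wounds at day 3 and 3 at day 5.

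The members sat low in unwounded skin, high at closure, high without cover and low again under cover, as the rule requires. The median over the 89 members was -3.36 and -3.53 on the 2 unwounded arrays. It ranged from -0.17 through a median of 0.23 to 0.47 on the day 0 arrays, from -0.67 through -0.14 to 0.26 on uncovered day 3 arrays and from -0.22 through -0.03 to 0.19 on uncovered day 5 arrays. On the covered arrays it was -3.09, -3.30, -3.53, -2.80 and -3.44 at day 3, and -3.49, -2.93, -3.29, -3.17 and -2.54 at day 5. Every covered array thus lay more than 1 log2 unit below every uncovered and day 0 array, and the covered and unwounded ranges overlapped. Each member's rise from unwounded to day 0, in log2 units, was taken as 100%. The median member stood at 81.5% of it in uncovered wounds at day 3 and 82.5% at day 5, against 6.66% and 2.48% in covered wounds. Such shares of a log2 rise are not shares of signal, and they rest on the differences that chose the probes. In this fit, which shares its arrays with the rule, 88 of the 89 members were called higher at day 0 than in unwounded skin (background 17.1% of all probes tested), 86 lower under cover at day 3 (background 7.23%) and 85 at day 5 (background 6.58%), and nothing is read from these counts.

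**Figure D1:**
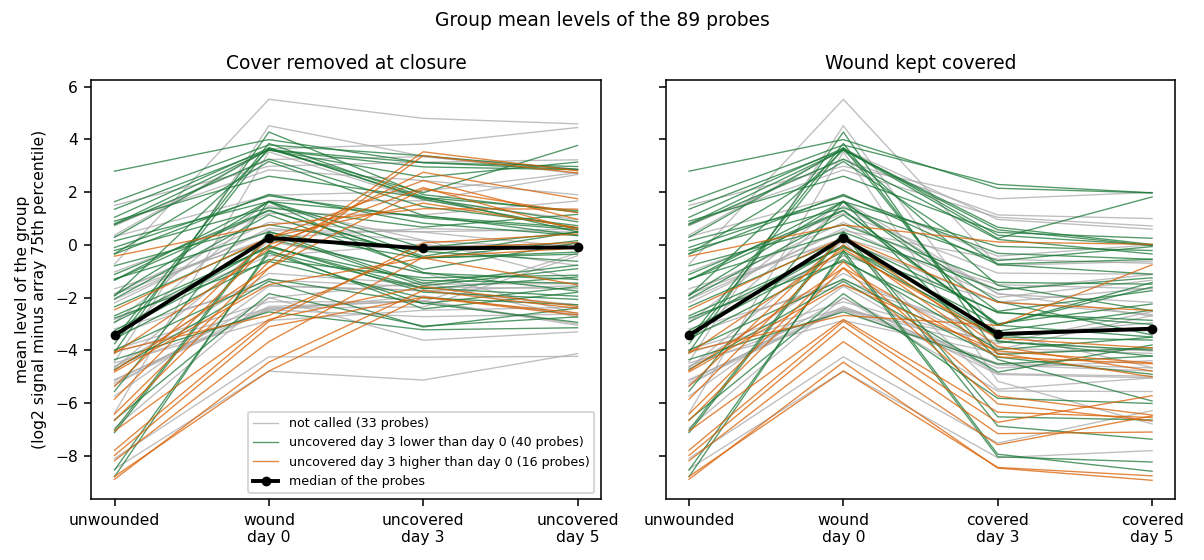
Mean level of each of the 89 probes in each group, as log2 signal minus the array's 75th percentile, along the uncovered course (left) and the covered course (right), with the median over probes in black. Lines are coloured by the call of uncovered day 3 against day 0 (16 higher, 40 lower, 33 not called), and the black median returns to -3.38 under cover at day 3, near its unwounded value of -3.43.

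The 8 contigs with the largest differences under the rule were each read by 2 member probes. UF_Ocu_AF_101828 gave -3.55 and -5.30 in unwounded skin and 4.11 to 4.95 (median 4.56) at day 0, a difference of 8.94 log2 units. Without cover it gave 2.58 to 4.19 (median 3.38) at day 3 and 1.98 to 3.48 (median 2.72) at day 5. Under cover it gave -0.41, -3.22, -4.93, -2.34 and -5.68 at day 3, and -7.28, -4.34, -4.37, -4.15 and -3.08 at day 5. The covered arrays of this probe spread over more than 5 log2 units at day 3, yet all lay below every uncovered array.

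UF_Ocu_AF_112456 was brighter throughout, with -0.69 and -0.77 in unwounded skin and 5.25 to 5.89 (median 5.42) at day 0. Uncovered wounds kept it at 4.25 to 5.32 (median 4.71) at day 3 and 3.96 to 5.00 (median 4.70) at day 5. Its covered values were 1.19, -1.06, -1.70, -0.25 and -2.09 at day 3, and -2.02, -0.68, -1.31, -0.60 and 1.48 at day 5, on both sides of the unwounded pair. UF_Ocu_AF_109723 had a different shape: -6.37 and -6.45 unwounded, -1.49 to 0.47 (median -0.63) at day 0, then 2.93 to 3.99 (median 3.49) and 2.59 to 3.45 (median 2.69) without cover. It was thus higher on every uncovered array than on any day 0 array. Its covered values were -6.59, -4.91, -6.50, -3.02 and -7.63 at day 3 and -5.95, -6.16, -5.69, -8.24 and -6.22 at day 5. UF_Ocu_AF_110526, not well above background in either unwounded array, rose at least 139-fold to -1.16 to 2.42 (median 0.09) at day 0. Its day 0 arrays fell apart, with 1.86 and 2.42 on replicates 5 and 6 and at most 0.22 on the other four, and UF_Ocu_AF_110525 of the same contig was also highest on replicates 5 and 6.

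**Figure D2:**
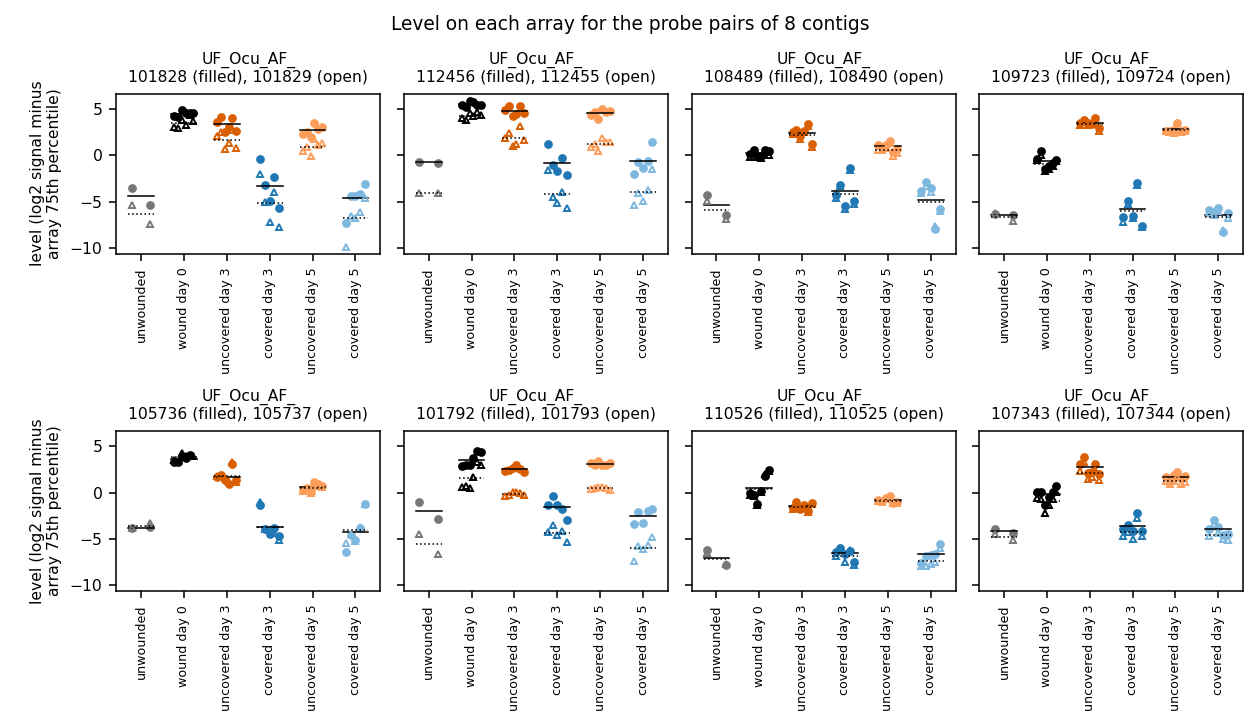
Level of both member probes (filled and open symbols) of the 8 contigs with the largest rule differences on each array, as log2 signal minus the array's 75th percentile, by group, with bars at the group means (solid for the filled, dotted for the open probe). For each probe taken alone, every day 0 and uncovered array lies above every covered array, and the covered arrays of the first panel spread from -0.41 to -5.68 at day 3 for the filled probe.

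The array that stood highest under cover was not the same for every contig. At day 3 it was replicate 1 for the contigs of UF_Ocu_AF_101828, UF_Ocu_AF_112456 and UF_Ocu_AF_105736, and at day 5 it was replicate 5 for the same contigs. As an example, the mean of UF_Ocu_AF_105736 and UF_Ocu_AF_105737 was -1.19 on replicate 1 at day 3, with the next array at -3.91. For the contigs of UF_Ocu_AF_108489, UF_Ocu_AF_109723 and UF_Ocu_AF_107343 the highest day 3 array was replicate 4, and the mean of UF_Ocu_AF_109723 and UF_Ocu_AF_109724 was -3.09 there, with the next array at -5.08. The deviations from the group means, over 30 arrays, correlated with r = 0.953 between the contigs of UF_Ocu_AF_112456 and UF_Ocu_AF_105736, 0.806 between those of UF_Ocu_AF_108489 and UF_Ocu_AF_109723, and 0.839 between those of UF_Ocu_AF_101792 and UF_Ocu_AF_110526. Across these pairs the values were lower, for example -0.117 between the contigs of UF_Ocu_AF_109723 and UF_Ocu_AF_105736. These are descriptions over arrays that share slides and scaling. Over all 56 contigs the highest covered array at day 3 was replicate 1 for 15, replicate 4 for 14, replicate 5 for 12, replicate 3 for 8 and replicate 2 for 7.

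Whether the level at closure was kept, passed or lost once the cover was off is a comparison whose sign the rule does not fix. It asks for high values in both groups, although the arrays are those of the rule. It does ask for a rise of at least 1 on these same day 0 arrays, which probes of the background need not show. The background is thus not matched for a rise at closure. How far the choice of probes set the counts below was not tested. At day 3, 40 of the 89 members (27 contigs) were lower in uncovered wounds than at day 0, against a background of 15.1% of all probes tested, and 16 members (9 contigs) were higher, against 20.5%. The median change of the members was -0.48 log2 units, against 0.13 over all probes tested. At day 5, 42 members (28 contigs) were lower than at day 0 (background 21.4%) and 17 (10 contigs) were higher (background 44.1%), with a median of -0.70 against 0.47. The all-probe medians depended on the scaling. With the 75th percentile over all probes, members and all probes had medians of -0.64 and -0.04 at day 3. At day 5 they had -1.10 and 0.07. In the authors' table the medians were -0.54 and -0.01 at day 3, and -0.83 and -0.005 at day 5. Background shares here and below are for the scaling described above only. Both comparisons use the same day 0 arrays. Every day 3 array lay below every day 0 array for 26 members (background 5.49%) and above for 13 (background 7.92%), and for 50 the arrays overlapped. The same counts at day 5 were 33 (background 15.1%) and 13 (background 29.7%).

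**Figure D3:**
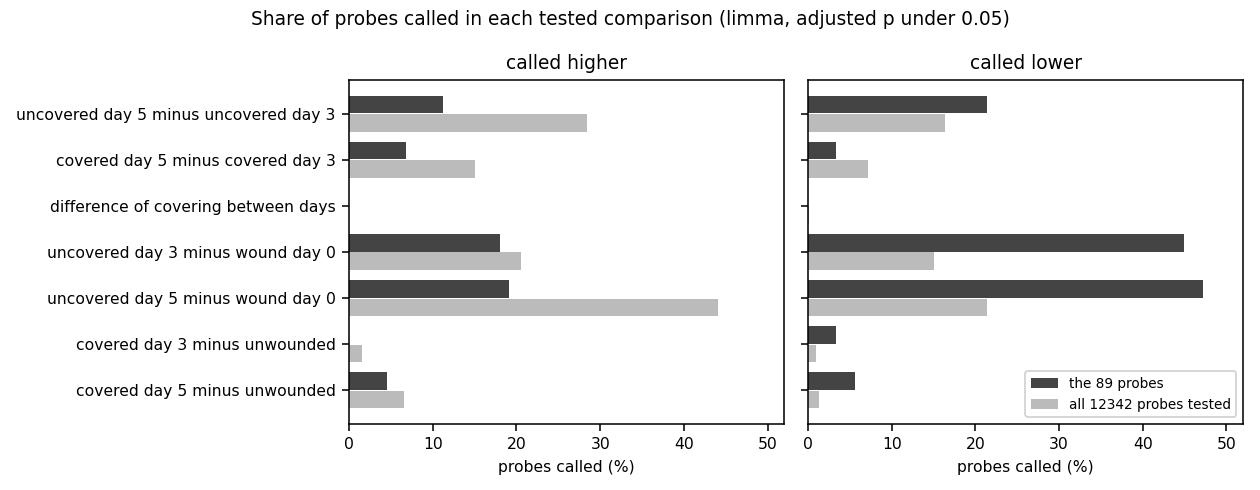
Share of probes called higher (left) and lower (right), in percent, in the 7 tested comparisons, for the 89 probes (dark) and for all 12342 probes tested (light). The dark bars for lower calls reach 44.9% and 47.2% for uncovered wounds against day 0, where the light bars reach 15.1% and 21.4%.

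The probes that rose furthest without cover were UF_Ocu_AF_109724 and UF_Ocu_AF_109723 of 1 contig. UF_Ocu_AF_109724 went from -1.72 to 0.05 (median -0.86) at day 0 to 2.65 to 3.99 (median 3.34) at day 3 and 2.42 to 3.55 (median 2.61) at day 5. The change at day 3 was 4.26 (SE 0.51, adjusted p = 3.72e-07), or 19.2-fold, and at day 5 it was 3.60 (SE 0.51, adjusted p = 1.18e-06), and the arrays did not overlap. UF_Ocu_AF_102421 was dim at closure, with -5.23 to -2.51 (median -3.46), and gave -1.07 to 0.07 (median -0.48) at day 3 and -0.57 to 0.67 (median -0.37) at day 5. It was higher by 3.20 (SE 0.42, adjusted p = 1.23e-06) and 3.54 (SE 0.42, adjusted p = 7.14e-08), again without overlap, and its contig partner UF_Ocu_AF_102422 was higher by 2.97 and 3.31. UF_Ocu_AF_107344 went from -2.20 to 0.13 (median -0.67) at day 0 to 1.33 to 3.32 (median 2.04) at day 3, a rise of 2.98 (SE 0.38, adjusted p = 9.28e-07). For the probes of these 3 contigs the day 0 mean lay between the unwounded and the uncovered means.

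The largest fall was that of UF_Ocu_AF_105704, whose sequence is given above. It gave -2.61 and -1.24 in unwounded skin, 0.65 to 2.65 (median 1.36) at day 0, -2.02 to 0.69 (median -1.66) in uncovered wounds at day 3 and -2.75 to -0.43 (median -1.84) at day 5. The day 3 arrays overlapped with day 0 only through replicate 5 (0.69), and all day 5 arrays lay below day 0. Day 0 replicates 5 and 6 stood highest, at 2.65 and 2.64, with at most 1.54 on the others. The change was -2.68 (SE 0.51, adjusted p = 0.000178), or 6.39-fold lower, at day 3 and -3.38 (SE 0.51, adjusted p = 3.2e-06) at day 5. Its mean was -1.92 in unwounded skin and -1.75 without cover at day 5. Its covered arrays gave -1.64, -3.06, -2.97, -2.79 and -0.26 at day 3, on both sides of the unwounded pair, and -3.91, -3.03, -3.37, -3.69 and -3.09 at day 5, all below it. UF_Ocu_AF_112455 fell from 3.87 to 4.67 (median 4.30) at day 0 to 0.45 to 1.91 (median 1.34) at day 5, by 3.04 log2 units (SE 0.55, adjusted p = 2.92e-05), without overlap. UF_Ocu_AF_104471, not well above background on any unwounded or covered array, fell from -1.25 to 1.64 (median -0.73) to -2.69 to -1.80 (median -2.56) at day 3, a change of -2.23 (SE 0.45, adjusted p = 0.000276). Its day 0 replicates 5 and 6 stood apart, at 1.64 and 1.04, with at most -0.41 on the others. UF_Ocu_AF_105737 and UF_Ocu_AF_105736, each with 1 day 0 array left out for an outlier flag, were lower at day 5 by 3.35 (adjusted p = 3.89e-05) and 3.06 (adjusted p = 0.000118). UF_Ocu_AF_112391 gave 0.85 to 2.60 (median 1.39) at day 0 and -1.35 to 0.64 (median -0.52) at day 3, lower by 2.08 (SE 0.37, adjusted p = 6.26e-05) with no overlap.

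**Figure D4:**
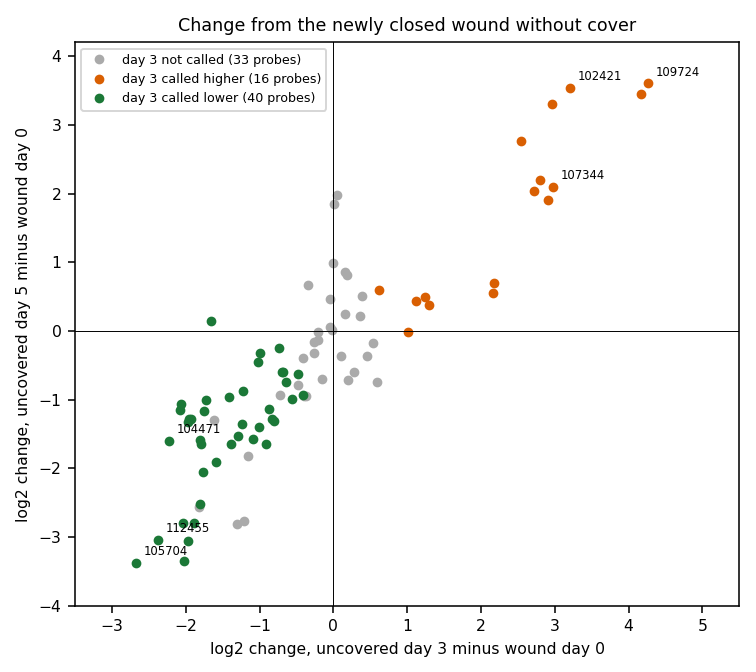
Log2 change from day 0 to uncovered day 3 (horizontal) and to uncovered day 5 (vertical) for each of the 89 probes, coloured by the day 3 call (16 higher, 40 lower, 33 not called). Both axes use the same day 0 arrays; the number after UF_Ocu_AF_ is printed for the probes named in the text, from 4.26 for UF_Ocu_AF_109724 to -2.68 for UF_Ocu_AF_105704.

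Within slides that held both groups, the direction of the 56 called members at day 3 was kept by 52, 56, 56 and 51 of them on slides 2, 7, 10 and 11, each with 1 array per group. At day 5, 59 and 57 of the 59 called members kept it on slides 7 and 11. These members were called with the same arrays in the fit. The agreement was thus partly fixed by that choice, and no background share is given. Over all members, called or not, the median change at day 3 was -0.739, -0.370, -0.595 and -0.019 on slides 2, 7, 10 and 11. At day 5 the median was -0.758 on slide 7 and -0.094 on slide 11. Leaving out single arrays gave 36 to 44 lower and 15 to 17 higher members at day 3, and 40 to 45 and 13 to 17 at day 5. Taking the 75th percentile over all probes left 12 members higher and 56 lower at day 5, in place of 17 and 42.

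Between day 3 and day 5 without cover, 19 members (15 contigs) fell and 10 (7 contigs) rose. The background was 16.4% lower and 28.4% higher, and the median change was -0.24 for the members against 0.27 over all probes tested. With the 75th percentile over all probes these medians were -0.47 and 0.03, and in the authors' table -0.30 and -0.02. Every day 5 array lay above every day 3 array for 4 members (background 17.3%) and below for 6 (background 7.99%). UF_Ocu_AF_101850 and UF_Ocu_AF_101851, of 1 clone, rose most. UF_Ocu_AF_101850 gave -3.10 to -1.90 (median -2.22) at day 3 and -0.59 to -0.11 (median -0.46) at day 5, without overlap, a rise of 1.94 (SE 0.23, adjusted p = 3.89e-07), and UF_Ocu_AF_101851 rose by 1.84 (SE 0.21, adjusted p = 1.3e-07). Its day 0 arrays, at -3.22 to -1.72, covered nearly the same range as day 3. UF_Ocu_AF_110105 rose by 1.79 (SE 0.45, adjusted p = 0.0029), from 0.19 to 3.72 (median 2.23) to 3.31 to 4.33 (median 3.81), and UF_Ocu_AF_112392 rose by 1.01 (SE 0.35, adjusted p = 0.0219).

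Among the called members, those that fell most over those days were UF_Ocu_AF_108490, by 1.61 (SE 0.62, adjusted p = 0.0367), and UF_Ocu_AF_106189, by 1.51 (SE 0.52, adjusted p = 0.0201). UF_Ocu_AF_103199 went from -1.62 to -0.74 (median -1.53) at day 3 to -3.49 to -1.82 (median -2.64) at day 5, without overlap, and was lower by 1.33 (SE 0.37, adjusted p = 0.00585). UF_Ocu_AF_100024 fell by 1.01 (SE 0.19, adjusted p = 0.000154) and was at -1.51 in the mean at day 0 and again at day 5, with a day 3 mean of -0.50. The call of UF_Ocu_AF_106189 was lost without uncovered day 3 replicate 5 (adjusted p = 0.0712) or day 5 replicate 3 (adjusted p = 0.0659), and that of UF_Ocu_AF_108490 under 10 alternatives (adjusted p from 0.0507 to 0.0938), 8 of which left out 1 uncovered array. The call of UF_Ocu_AF_112392 was lost with the 75th percentile over all probes (adjusted p = 0.0724) and without day 3 replicate 3 (adjusted p = 0.0655) or 4 (adjusted p = 0.0623) or day 5 replicate 4 (adjusted p = 0.0549) or 5 (adjusted p = 0.0537). Leaving out day 3 replicate 3 or day 5 replicate 4 brought the 10 rising members to 5, leaving out day 5 replicate 5 to 6, and leaving out day 3 replicate 5 brought the 19 falling members to 11. With the 75th percentile over all probes the split was 4 higher and 28 lower, with array weights 21 and 25, with slide as a fixed block 7 and 23, with the authors' values 9 and 30, and after normexp background correction 7 and 29.

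Between day 3 and day 5 under cover, with 5 arrays a group, 6 members (5 contigs) rose and 3 (2 contigs) fell. The rising members include the overlapping pair UF_Ocu_AF_111934 and UF_Ocu_AF_103873, counted here as 2 contigs. The background was 15.1% higher and 7.19% lower, and the median change was -0.16 for the members and 0.12 over all probes tested. With the 75th percentile over all probes these medians were -0.30 and -0.02, and in the authors' table -0.18 and -0.03. The sign of the member median was not stable. It was 0.04 with slide or scan day as a fixed block, against 0.18 and 0.24 over all probes. Without slide 6, and so without covered day 5 replicate 1, it was 0.09 against 0.26. That replicate was the lowest covered day 5 array for 33 of 56 contigs. Every day 5 array lay above every day 3 array for 7 members (background 13.1%) and below for 1 (background 6.26%). UF_Ocu_AF_100866 rose most, from -1.99, -4.13, -4.31, -2.89 and -1.96 at day 3 to 0.06, -0.93, -0.15, -1.79 and -0.95 at day 5. Every day 5 array lay above every day 3 array, and the change was 2.30 (SE 0.44, adjusted p = 0.000731). Its uncovered arrays gave -0.47 to 0.47 at day 3 and -0.26 to 0.57 at day 5, and its unwounded arrays -2.80 and -5.27, so this probe stood above its day 0 range of -3.23 to -1.94 on every covered day 5 array. UF_Ocu_AF_111934 went from -3.10, -3.33, -3.38, -2.76 and -2.65 to -1.87, -1.36, -1.55, -1.28 and -1.07 under cover, by 1.62 (SE 0.25, adjusted p = 6.41e-05), and UF_Ocu_AF_103873, which reads the same stretch, by 1.45 (SE 0.24, adjusted p = 0.000125).

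UF_Ocu_AF_110105 gave 0.35, -0.51, -0.03, 0.44 and 0.97 on covered arrays at day 3 and 1.01, 1.96, 2.02, 1.91 and 2.17 at day 5, a rise of 1.57 (SE 0.50, adjusted p = 0.0264). UF_Ocu_AF_101850 and UF_Ocu_AF_101851 rose under cover by 1.30 (SE 0.26, adjusted p = 0.000934) and 1.21 (SE 0.23, adjusted p = 0.000504). UF_Ocu_AF_101793 fell from -4.26, -3.48, -4.58, -4.14 and -5.27 to -7.38, -5.77, -6.07, -5.59 and -4.78, by 1.57 (SE 0.49, adjusted p = 0.0244), with the ranges overlapping and 3 of the 5 day 5 arrays well above background. UF_Ocu_AF_101713, at 0.78, 0.76, 0.82, 0.49 and 0.48, went to 0.06, -0.07, 0.10, -0.15 and 0.14, lower by 0.65 (SE 0.14, adjusted p = 0.0019) without overlap, and UF_Ocu_AF_101712 of the same contig by 0.59 (SE 0.19, adjusted p = 0.0266).

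Leaving out covered day 3 replicate 2 or covered day 5 replicate 1 reduced the 3 falling members to 1, and leaving out covered day 3 replicate 5 raised them to 6. The call of UF_Ocu_AF_110105 was lost without covered day 3 replicate 2 (adjusted p = 0.0757) or 3 (adjusted p = 0.0608) or day 5 replicate 5 (adjusted p = 0.0587). That of UF_Ocu_AF_101793 was lost without covered day 3 replicate 2 (adjusted p = 0.0751) or day 5 replicate 1 (adjusted p = 0.0639), in the authors' table (change -0.97, adjusted p = 0.0668), after normexp correction (adjusted p = 0.0545) and with slide as a fixed block (adjusted p = 0.0581). That of UF_Ocu_AF_101712 was lost with no filter on dim probes (adjusted p = 0.0625), with scan day as a block (adjusted p = 0.0505), without slide 6 (adjusted p = 0.0662) and without day 3 replicate 1, 2 or 3 or day 5 replicate 1 (adjusted p from 0.0581 to 0.0738). The split of higher and lower calls was 6 and 9 with the 75th percentile over all probes, 6 and 8 with quantile normalization, 6 and 5 after normexp correction or in the authors' table, and 9 and 2 without slide 6 or with slide as a fixed block. All 9 called members kept their direction on slides 3 and 9, the slides that held both covered days. These members were called with the same arrays in the fit. The agreement was thus partly fixed by that choice, and no background share is given. Over all members, called or not, the median change was 0.24 on slide 3 and 0.21 on slide 9. Each slide held 1 array per day, and the median in the fit over all arrays was -0.16.

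**Figure D5:**
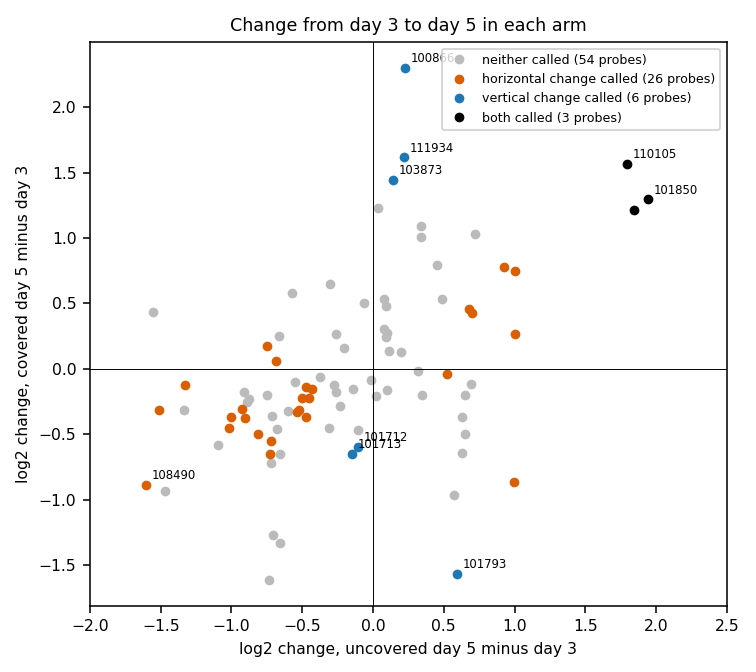
Log2 change from day 3 to day 5 without cover (horizontal) and under cover (vertical) for each of the 89 probes, coloured by which change was called (26 horizontal, 6 vertical, 3 both). The number after UF_Ocu_AF_ is printed for the named probes; UF_Ocu_AF_110105, UF_Ocu_AF_101850 and its contig partner lie at the upper right, and UF_Ocu_AF_100866 at 2.30 on the vertical axis.

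A direct test of whether the covered minus uncovered difference changed from day 3 to day 5 called none of the 89 members in either direction with limma. The background was 0.0162% higher and 0.105% lower, so few probes of any kind were called. The lowest adjusted p among the members was 0.0933, reached by UF_Ocu_AF_103873 (difference 1.31, SE 0.33) and UF_Ocu_AF_111934 (1.40, SE 0.34). UF_Ocu_AF_100866 had a difference of 2.07 (SE 0.60, adjusted p = 0.144) and UF_Ocu_AF_101793 one of -2.16 (SE 0.67, adjusted p = 0.166). The median over the members was 0.21, with 56 above 0 and 33 below. Leaving out uncovered day 3 replicate 4 gave 2 calls, all higher, and so did leaving out slide 6. Slide as a random block gave 3, and array weights gave 4 higher and 4 lower.

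Covered wounds were then set against unwounded skin, where the rule asks for low values in both groups. At day 3, 3 of 89 members were lower than in unwounded skin (background 0.956%) and none was higher with limma (background 1.6%). The 3 include the overlapping pair UF_Ocu_AF_111934 and UF_Ocu_AF_103873. The median change was 0.23, against 0.09 over all probes tested. At day 5, 5 members (3 contigs) were lower (background 1.27%) and 4 (3 contigs) higher (background 6.6%), with a median of 0.15 against 0.26. With the 75th percentile over all probes the medians were 0.15 and 0.01 at day 3, and -0.07 and 0.04 at day 5. The unwounded group has 2 arrays, and the standard errors varied between members, with 0.98 for UF_Ocu_AF_110104 and 0.18 for UF_Ocu_AF_101713. The absence of a call does not show that a member was back at its unwounded level.

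UF_Ocu_AF_111934 and UF_Ocu_AF_103873 were lower under cover at day 3 than in unwounded skin, by 1.92 (SE 0.34, adjusted p = 0.00217) and 1.71 (SE 0.32, adjusted p = 0.00387). The unwounded arrays of UF_Ocu_AF_111934 gave -1.69 and -0.55, above all 5 covered day 3 arrays. UF_Ocu_AF_101713 gave 1.08 and 1.62 unwounded, above every covered array, and was lower by 0.68 (SE 0.18, adjusted p = 0.0429) at day 3 and 1.34 (SE 0.18, adjusted p = 3.55e-05) at day 5. UF_Ocu_AF_111946 and UF_Ocu_AF_111947 of 1 contig were lower at day 5, the former 2.15-fold (log2 SE 0.31, adjusted p = 0.0254) and the latter by 1.05 log2 units (SE 0.33, adjusted p = 0.0482), and UF_Ocu_AF_101712 by 0.81 (SE 0.25, adjusted p = 0.0435). The fifth lower member was UF_Ocu_AF_103602, by 0.76 (SE 0.24, adjusted p = 0.0445). Higher than unwounded at day 5 were UF_Ocu_AF_100866, by 3.28 (SE 0.59, adjusted p = 0.00058), UF_Ocu_AF_101851, by 1.44 (SE 0.30, adjusted p = 0.00288), and UF_Ocu_AF_101850, by 1.41 (SE 0.34, adjusted p = 0.00938). The fourth was UF_Ocu_AF_102422, at least 1.90-fold higher (adjusted p = 0.0318), which was well above background on neither unwounded array and on 4 of 5 covered day 5 arrays. Its measured levels were -7.57 and -7.99 unwounded, and -4.83, -5.10, -5.50, -6.97 and -6.18 under cover at day 5.

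Many of these calls were lost when arrays were left out. Without unwounded replicate 2 no member was lower at day 3, and 2 members were higher and 1 lower at day 5, and without unwounded replicate 1 the day 3 counts were 6 higher and 5 lower. Without covered day 5 replicate 1, 1 member was higher at day 3 and 10 at day 5. Leaving out slide 6 removes unwounded replicate 2 and covered day 5 replicate 1, and no covered day 3 array. No member was then lower at day 3, and 2 were higher and 1 lower at day 5. The day 5 change of UF_Ocu_AF_100866 was 1.84 without slide 6 and 2.05 without unwounded replicate 2, in place of 3.28, each with 1 unwounded array left. Its call was also lost with array weights, where all arrays were kept (change 3.17, limma adjusted p = 0.116). At day 3 UF_Ocu_AF_111934 changed by -1.35 (adjusted p = 0.168), UF_Ocu_AF_103873 by -1.19 (adjusted p = 0.214) and UF_Ocu_AF_101713 by -0.41 (adjusted p = 0.741) without slide 6. UF_Ocu_AF_101713 kept its day 5 call under every alternative, and its day 3 call was lost under 20 of them (adjusted p from 0.0509 to 0.936), among them leaving out any covered day 3 array. The day 5 call of UF_Ocu_AF_111947 was lost under 26 alternatives (adjusted p up to 0.61, with a change of -0.69 without unwounded replicate 2), that of UF_Ocu_AF_101712 under 14 (up to 0.333) and that of UF_Ocu_AF_111946 under 8 (up to 0.458). With slide as a fixed block UF_Ocu_AF_101850 had an adjusted p of 0.0966 and UF_Ocu_AF_101851 one of 0.0543, and without unwounded replicate 1 UF_Ocu_AF_101850 had one of 0.0709. In the authors' table both rose by 0.91 log2 units, in place of 1.41 and 1.44. The 5 lower members at day 5 came to 1 without covered day 5 replicate 4, to 2 without covered day 5 replicate 2 or covered day 3 replicate 1 or 2, and to 3 without any of the remaining covered day 3 replicates 3 and 5, uncovered day 3 replicates 1 and 4 or any uncovered day 5 array. The day 5 split of higher and lower calls was 3 and 6 with the 75th percentile over all probes, 3 and 1 with quantile normalization, 3 and 2 after normexp correction, and 2 and 1 with array weights.

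The 33 contigs with 2 members allow the 2 probes of each to be compared. Across the arrays the paired probes correlated with a median r of 0.989, and 31 of 33 pairs were above 0.9. Both probes of each pair had passed the rule, which asks the same group pattern of all members. A high r was thus partly fixed by that choice and says little about contigs in general. The lowest value was 0.723, over 29 arrays, for UF_Ocu_AF_110104 and UF_Ocu_AF_110105. These were both raised at day 0 and both lower under cover, but between day 3 and day 5 without cover UF_Ocu_AF_110105 rose by 1.79 while UF_Ocu_AF_110104 changed by -1.56 (SE 0.68, adjusted p = 0.0627). At day 5 UF_Ocu_AF_110104 gave -3.18 to -2.05 (median -2.52) without cover, below its day 0 arrays at -1.61 to 1.88, a change of -2.77 (SE 0.68, adjusted p = 0.000915), and UF_Ocu_AF_110105 gave 0.14 (SE 0.48, adjusted p = 0.803). UF_Ocu_AF_110105 has 73.3% GC and UF_Ocu_AF_110104 45.0%. One day 0 array of UF_Ocu_AF_110105 was left out for an outlier flag. UF_Ocu_AF_112455 and UF_Ocu_AF_112456 also parted in size, with changes of -2.37 (adjusted p = 0.00111) and -0.72 (SE 0.45, adjusted p = 0.225) from day 0 to uncovered day 3.

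The other 23 contigs each carry a second AF probe that the rule did not take. In 15 of them all 3 rule differences of that probe were above 0. In 4 the probe was well above background on no array. UF_Ocu_AF_106188, on the clone of UF_Ocu_AF_106189, went the other way in all 3 differences of the series table, at -0.87 for the wound and -0.52 and -0.07 for uncovered minus covered. UF_Ocu_AF_103874, on the contig of UF_Ocu_AF_103873, gave -0.74, 0.02 and -0.15. UF_Ocu_AF_105705, on the contig of UF_Ocu_AF_105704, gave 1.42, 0.13 and 0.24, and was well above background on all 30 arrays. It thus showed the rise at closure but little difference by covering. Near the thresholds, the members closest to leaving were UF_Ocu_AF_107313, UF_Ocu_AF_111077 and UF_Ocu_AF_105785, with day 5 differences of 0.815, 0.818 and 0.822. Just outside lay UF_Ocu_AF_100891, with 0.788 at day 5, UF_Ocu_AF_109955, with 0.783 at day 3, and UF_Ocu_AF_104870, with 0.978 for the wound. In the series table the uncovered minus covered difference at day 3 divided by the wound difference was largest for UF_Ocu_AF_100866 (2.43), UF_Ocu_AF_102421 (2.23) and UF_Ocu_AF_106574 (2.16). It was smallest for UF_Ocu_AF_105704 (0.30), UF_Ocu_AF_100609 (0.41) and UF_Ocu_AF_114204 (0.42). The unwounded arrays of UF_Ocu_AF_114204 lay far apart, at -4.67 and -9.21.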

How the data were processed

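The deposited scanner files hold spot intensity from Agilent Feature Extraction, which per the file headers were background-subtracted and detrended, with surrogate values near background and no scaling from array to array. Other deposited columns flag spots well above background, saturated or outlying. The authors' series table holds intensity on a linear scale with medians of 288 to 293, which correlated with the scanner signal with r from 0.952 to 0.982 on the log2 scale. Its background correction is not given in the sources used here, and the submitters' processing notes name limma. The members and the lists of named probes were chosen with earlier results of these data known. The rule was applied to the log2 series table. For tests, control and outlier-flagged spots were left out, and spots of a probe averaged. All groups entered 1 limma 3.58.1 fit in R 4.3.3 (2-sided, no block). The test script was first tested on simulated data. Contigs were ranked by the smallest of the 3 rule differences of their best probe. Named probes are those of the first 8 contigs, up to 4 called members per direction and comparison with the largest change and signal well above background on 50% or more of the arrays of each group, 3 on each side of the thresholds, and 3 at each end of the ratio. UF_Ocu_AF_110104, UF_Ocu_AF_103602, the partner probes that the rule did not take and UF_Ocu_AF_102422 against unwounded skin were chosen after their values were seen. An "at least" fold sets the mean of the brighter group against, per array, the lowest signal of any probe well above background, or the dim probe's signal where that was larger. Alternatives were other scalings, background correction, filters, blocks, weights and single arrays left out, and, added after the data were seen, leaving out slide 6. Gene names and marker lists were not used here. The number of arrays limits precision.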

Additional observations from a re-analysis of the deposited data

Results flagged for a closer look

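In 85 groups of 5 or 6 arrays, over the 16 probes of the leading contigs and the median of the members, 5 values stood far from the other arrays of their group. Chance gives about 1 in 20 groups, and the number seen is close to that share. Paired probes of a contig are not independent. UF_Ocu_AF_105736 gave -1.36 on covered day 3 replicate 1, against -4.69 to -3.77 on the other arrays. UF_Ocu_AF_109723 and UF_Ocu_AF_109724, of 1 contig, gave 3.45 and 3.55 on uncovered day 5 replicate 4, against 2.59 to 2.76 and 2.42 to 2.66. UF_Ocu_AF_109723 also gave its lowest covered day 5 value, -8.24, on replicate 4, against -6.22 to -5.69. UF_Ocu_AF_110525 gave -5.91 on covered day 5 replicate 5, against -7.91 to -7.51. The low covered day 5 values of UF_Ocu_AF_109723 and UF_Ocu_AF_110525 lie near background, which limits these comparisons. The causes were not tested.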

How the results depend on the processing

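The counts of members against day 0 stayed within 1.5 times under every alternative run, and of 1722 alternative values of the named probes none changed direction and 110 lost their call. With the rule differences taken on the scanner signal of all AF probes tested, 163 probes passed in place of 89; leaving out single arrays gave 85 to 97 members. Uncovered day 5 against day 3 gave 4 higher with the 75th percentile over all probes, 6 with no filter and 21 with array weights, 29 lower after normexp correction and 30 in the authors' table, and with single arrays left out 5 to 11 higher and 11 to 21 lower. Covered day 5 against day 3 gave 24 higher and 15 lower with array weights, 9 lower with the 75th percentile over all probes, 8 with quantile normalization, 5 after normexp correction and 5 in the authors' table, and 5 to 9 higher and 1 to 6 lower with single arrays left out. The difference of covering between days gave 3 higher with slide as a random block, 4 higher and 4 lower with array weights, 2 higher without slide 6, and 0 to 2 higher and 0 lower with single arrays left out. Against unwounded skin, day 3 gave 0 lower without slide 6, and 0 to 6 higher and 0 to 5 lower with single arrays left out. Day 5 gave 2 higher with slide as a fixed block, array weights or without slide 6, and 2 to 10 with single arrays left out. Lower at day 5 were 1 with quantile normalization, no filter, array weights or without slide 6, 2 after normexp correction or with slide as a fixed block, 3 with scan day as a block, and 1 to 7 with single arrays left out. The ranges against day 0 with single arrays left out were 36 to 44 lower and 15 to 17 higher at day 3, and 40 to 45 and 13 to 17 at day 5. The causes were not tested.

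The replicate numbers of the titles were tried as a block. Deviations of same-numbered arrays of different groups correlated with a median r of -0.011 (-0.722 to 0.522, 63 pairs, 23 above 0.1), against -0.0003 over 306 other pairs. Of 30 arrays, 8 matched their own number best. The labels do not say whether equal numbers share an animal, and these values do not settle it. With the replicate block the day 5 count lower than unwounded was 3 in place of 5, and the other counts stayed within 1.5 times.

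Signal over background limits the unwounded and covered values of the dimmest members. The design holds 2 unwounded arrays.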
